A study of Mus musculus with 18 samples.

Results

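The effect of ezrin loss was examined in monocyte-derived macrophages (moMs) of the inflamed lung, by comparing 3 libraries of moMs from Ezr-KOm mice with 3 libraries of moMs from WT mice, 6 of the 18 libraries of the series. Ezr-KOm mice carried floxed Ezr alleles (Ez fl/fl) together with the Cre recombinase knocked into the Cx3cr1 locus, and WT mice carried the same Cx3cr1 Cre without floxed Ezr, so that Cre was present in both groups and floxed Ezr in one. All mice, of both sexes and 3 to 5 months old on a C57BL/6 background, inhaled nebulized lipopolysaccharide (LPS) of Pseudomonas aeruginosa (12.5 mg in 5 ml for 15 min), and moMs were sorted from the perfused lung 24 h later as CD45+CD11b+MHC-II-Ly6C+ cells. No library came from mice without LPS. The other 12 libraries hold transitional interstitial macrophages (tnsIMs, MHC-II+Ly6C+; named trIM in the labels) and mature interstitial macrophages (matIMs, MHC-II+Ly6C-) of the same genotypes.

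Genes were kept by an expression filter over all 6 groups, which left 15811 of the 21254 genes in the table. They were divided by position on the GRCm39 build into a chromosome 17 window from 0 to 30 Mb, which holds Ezr and had 297 tested genes, a chromosome 4 window from 130 to 160 Mb with 326 tested genes, and the remaining 15188 genes. Levels are given in CPM, the counts of a gene relative to the total of its library after scaling by trimmed mean of M values (TMM) factors. They are not corrected for gene length and are compared between libraries and not between genes. A gene was called where edgeR's quasi-likelihood test gave it a p under 0.05 after Benjamini-Hochberg adjustment (the adjusted threshold). The study's own rule, a raw p below 0.05 and a log2 fold change beyond 0.75 in either direction, was applied separately.

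Ezrin, moesin and radixin form the ERM family, which links the plasma membrane to the cortical actin cytoskeleton once a kinase has opened the folded protein. In migrating leukocytes ERM proteins anchor adhesion receptors and shape the rear of the cell, and they have been tied to adhesion and phosphoinositide signalling. Ly6C+ monocytes enter the lung from blood through the chemokine receptor Ccr2, take part in the early cytokine response to LPS and can mature into interstitial macrophages.

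Ezr (ENSMUSG00000052397, chromosome 17, 7005440 to 7050183) was the targeted gene. It was measured at 503, 593 and 497 CPM in the WT moM libraries and at 282, 160 and 252 CPM in the Ezr-KOm libraries. Every Ezr-KOm library lay below every WT library. The mean level was 531 ± 53.6 CPM in WT and 231 ± 63.7 CPM in Ezr-KOm (SD, n = 3 each), and the fitted level was 2.30-fold lower (log2 fold change -1.20, standard error 0.24). The adjusted p was 0.0549 over all genes in edgeR's quasi-likelihood test. With the replicate number as a block, the log2 fold change was -1.26 and the adjusted p 0.00194. The log2 fold change of Ezr was -1.62 in tnsIMs and -2.29 in matIMs, and the interaction of either with moMs did not pass the adjusted threshold. The counts cover the whole gene, so the excised part of the transcript was not measured on its own, and in sorted bulk cells a lower share of cells with Ezr transcripts and less transcript per cell cannot be told apart.

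The other ERM genes did not pass the test. Msn, which encodes moesin, was at 2550, 2630 and 2490 CPM in WT and 2610, 2400 and 2850 CPM in Ezr-KOm libraries, and Rdx, which encodes radixin, was at 67.2, 67.9 and 73.3 CPM in WT and 78.5, 64.2 and 77.0 CPM in Ezr-KOm libraries. The groups overlapped for both genes. Of 25 tested genes of a list of ERM proteins, their kinases and partners, Ezr was lower by the study's rule and 0 were higher, with a median log2 fold change of 0.05.

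In all, 27 genes passed the adjusted threshold in moMs, 0.171% of the genes tested. Of these 12 were higher in Ezr-KOm (0.0759%) and 15 lower (0.0949%). The chromosome 17 window held 14 of them, 6 higher and 8 lower, which is 4.71% of its tested genes. The chromosome 4 window held 5, all lower, which is 1.53% of its tested genes. The remaining 8, 6 higher and 2 lower, were 0.0527% of the genes outside both windows. For each of the 27 genes the 3 Ezr-KOm libraries lay entirely above or entirely below the 3 WT libraries, as they did for 8.52% of all genes tested. The 27 were selected by p on these libraries, so their separation adds no support. Without 1 moM library the chromosome 17 count was 9 or 10, with 9 for WT replicate 2, WT replicate 3 or Ezr-KOm replicate 2 left out. The chromosome 4 count was 2 with WT replicate 1, WT replicate 3, Ezr-KOm replicate 1 or Ezr-KOm replicate 3 left out.

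**Figure D1:**
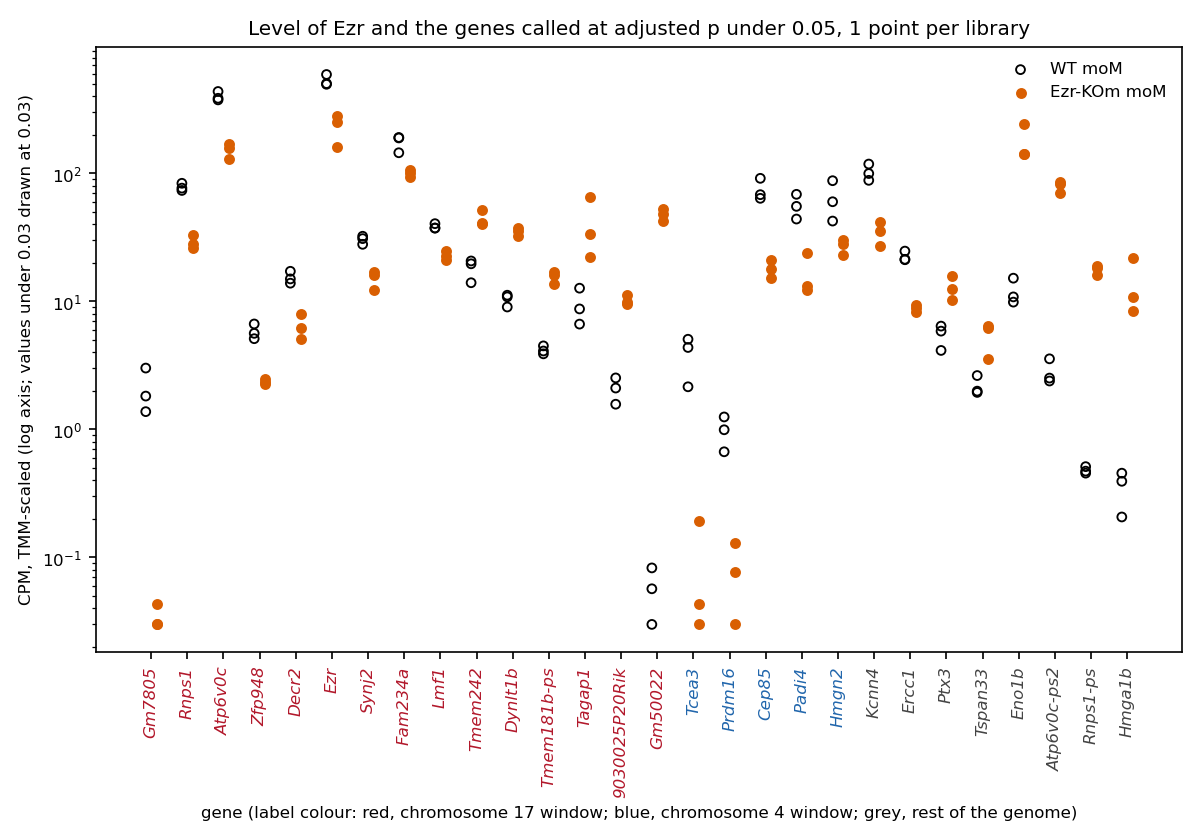
Level in CPM (log axis, values under 0.03 drawn at 0.03) of Ezr and the 27 genes called at the adjusted threshold, with 1 point per moM library, open for WT and orange for Ezr-KOm, and gene names coloured by genome region. The groups are separate for every gene shown, 27 of them selected by p on these libraries. Of the 28 genes, 15 belong to the chromosome 17 window.

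The study's rule called 397 genes (2.51%), of which 245 were higher in Ezr-KOm (1.55%) and 152 lower (0.961%). The rule does not correct for the number of genes tested, and in simulated data of 15811 genes it called 286 unchanged genes. In the moM libraries the balance of higher and lower genes rested on single libraries. It was 197 higher and 272 lower without Ezr-KOm replicate 1, and 368 higher and 136 lower without WT replicate 1. In the chromosome 17 window 39 genes were called (18 higher, 21 lower), 13.1% of those tested there, and in the chromosome 4 window 33 genes (13 higher, 20 lower), 10.1%. Outside both windows the rule called 325 genes (214 higher, 111 lower), or 2.14%, with 168 higher and 227 lower there without Ezr-KOm replicate 1 and 331 higher and 101 lower without WT replicate 1. The share differed within the windows. It was 26.7% from 0 to 10 Mb of chromosome 17, around Ezr, 10.4% from 10 to 20 Mb and 10.8% from 20 to 30 Mb, and it fell to 3.37% from 30 to 40 Mb. On chromosome 4 it was 8.90%, 16.3% and 5.68% in the 3 successive 10 Mb intervals of the window and 0.952% in the interval from 120 to 130 Mb. The other chromosomes, with the rest of chromosomes 4 and 17, had shares between 1.22% and 3.54%.

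At the edges of the windows the values were as follows. The last 3 tested genes inside the chromosome 17 window, Rnf8, Cmtr1 and Ccdc167, had log2 fold changes of -0.03, 0.12 and 0.42, and the first 3 beyond it, Mdga1, Gm50019 and Zfand3, had 0.33, 0.19 and 0.25. On chromosome 4 the first 3 inside, Tinagl1, Serinc2 and Fabp3, had 0.32, 0.63 and 1.24, and the nearest 3 outside, Gm12966, Col16a1 and Pef1, had -0.16, -1.63 and -0.02. Cre sits at Cx3cr1 on chromosome 9 in both genotypes, and within 10 Mb of that gene 3 of 129 tested genes met the study's rule (2.33%).

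**Figure D2:**
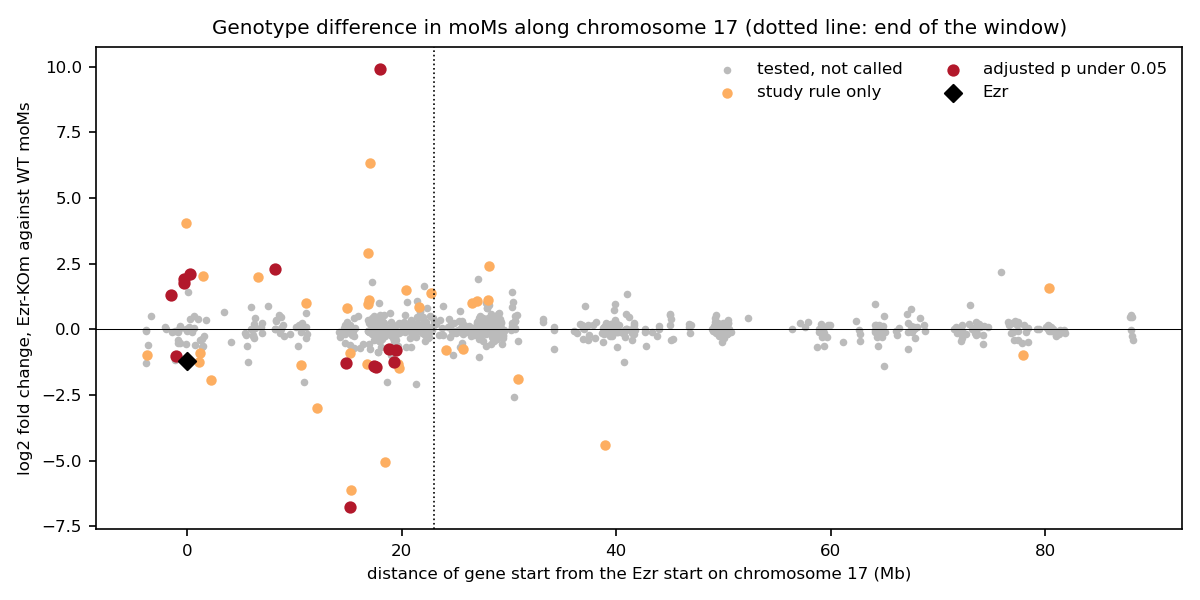
Log2 fold change of each tested gene of chromosome 17 in Ezr-KOm against WT moMs, by the distance of its start from that of Ezr in Mb, with the end of the window dotted. The 14 genes at the adjusted threshold lie between -1.54 and 19.4 Mb from Ezr, and none lies beyond the window.

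Near Ezr itself, 5 genes within about 2 Mb passed the adjusted threshold. Dynlt1b, which encodes a light chain of the dynein motor, was at 9.05, 11.2 and 10.9 CPM in WT and 32.8, 37.3 and 35.7 CPM in Ezr-KOm moMs, 3.39-fold higher (adjusted p = 1.51e-05, edgeR). Its relatives in the same cluster did not follow it. Dynlt1f had a log2 fold change of -0.57, Dynlt1a -0.51 and Dynlt1c 0.00, and none of the 3 passed the adjusted threshold. The Dynlt1b transcript is 98.7% to 99.1% identical to these relatives, so reads of one can be lost or counted on another, and the 4 values are uncertain to that degree. Tmem181b-ps, a pseudogene 99.4% identical to Tmem181a, rose 3.74-fold (adjusted p = 0.00446, edgeR), whereas Tmem181a had a log2 fold change of 0.14.

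Tagap1, a relative of Tagap, was at 12.7, 8.74 and 6.65 CPM in WT and 65.7, 22.3 and 33.8 CPM in Ezr-KOm moMs (4.36-fold higher, adjusted p = 0.0121, edgeR). Its highest value was in Ezr-KOm replicate 1, and the call was lost without that library, WT replicate 2 or WT replicate 3 (adjusted p up to 0.145 over all alternatives). Tmem242 was 2.45-fold higher (adjusted p = 0.00864, edgeR), a call lost without WT replicate 1, WT replicate 3 or Ezr-KOm replicate 2 (up to 0.116). Synj2, a phosphoinositide phosphatase, was 2.02-fold lower (adjusted p = 0.0126, edgeR), a call lost without WT replicate 1 or 2 or Ezr-KOm replicate 2 or 3 (up to 0.147). Every Ezr-KOm mouse carries both the Ezr alleles and the DNA around them, so loss of ezrin and the neighbourhood of the locus cannot be told apart here.

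Farther along the window, from 8 to 19 Mb beyond Ezr, lay the other 9 calls of chromosome 17. Gm50022, a long noncoding RNA, had no more than 3 counts in any WT library, against 48.3, 42.4 and 52.9 CPM in Ezr-KOm moMs. It was at least 348-fold higher, taking 3 counts per library as the floor (adjusted p = 1.38e-09, edgeR). It lies opposite to another noncoding gene, Gm64447, and since the library kit does not mark strand, reads of the 2 cannot be told apart. Gm7805, a pseudogene inside Zfp943 on the opposite strand, was lower. It was at 3.02, 1.82 and 1.38 CPM in WT and at the floor of 3 counts in each Ezr-KOm library, at least 16.4-fold lower (adjusted p = 3.90e-04, edgeR). 9030025P20Rik, 99.3% identical to Ermard, was 4.93-fold higher (adjusted p = 7.64e-04, edgeR).

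The other 6 calls of this stretch, all protein-coding, were lower. Rnps1, an RNA-binding protein of the exon junction complex, was at 76.8, 83.8 and 73.7 CPM in WT and 26.2, 33.1 and 28.3 CPM in Ezr-KOm moMs (2.67-fold lower, adjusted p = 2.92e-05, edgeR). Atp6v0c, the proteolipid subunit of the proton pump that acidifies lysosomes, was at 387, 437 and 376 CPM in WT and 170, 158 and 130 CPM in Ezr-KOm moMs (2.62-fold lower, adjusted p = 0.00194, edgeR). Decr2, an enzyme of peroxisomal fatty acid oxidation, was 2.38-fold lower (adjusted p = 0.00194, edgeR). Lmf1, needed for lipase maturation, Fam234a and the zinc finger gene Zfp948 were 1.68-fold, 1.74-fold and 2.46-fold lower at adjusted p of 0.0156, 0.0469 and 0.0338 (edgeR), and the call on each was lost in at least 5 of the 6 fits without 1 moM library, with adjusted p up to 0.181, 0.273 and 0.247 over all alternatives.

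Pim1, a serine and threonine kinase induced by cytokines, met the study's rule in the same window at 392, 278 and 246 CPM in WT and 1150, 408 and 811 CPM in Ezr-KOm moMs. The groups did not overlap, but Ezr-KOm libraries differed by more than 2-fold among themselves, and the adjusted p was 0.379 (edgeR). With the replicate block it was 0.00141. Gpr31c, a receptor gene, was at 1.37, 1.86 and 1.81 CPM in WT and 6.83, 5.05 and 8.24 CPM in Ezr-KOm (log2 fold change 1.98, adjusted p = 0.0808, and 0.0261 with the block).

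In the chromosome 4 window all 5 calls were lower in Ezr-KOm moMs. Cep85, a centrosomal protein, was at 91.6, 63.9 and 68.3 CPM in WT and 15.2, 21.2 and 18 CPM in Ezr-KOm (4.11-fold lower, adjusted p = 0.00327, edgeR). Tcea3, a transcription elongation factor, was at 5.07, 2.15 and 4.37 CPM in WT and 0.0435, 0.193 and 0.00 CPM in Ezr-KOm (log2 fold change -5.46, adjusted p = 3.71e-04, edgeR). These 2 calls held in every alternative fit that tested the gene.

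Padi4, which converts arginine of histones and other proteins to citrulline, was at 55.3, 44.0 and 68.7 CPM in WT and 12.4, 23.9 and 13.2 CPM in Ezr-KOm moMs (3.39-fold lower, adjusted p = 0.0355, edgeR). Its neighbour Padi2, an enzyme of the same family, was at 103, 112 and 126 CPM in WT and 38.8, 57.2 and 49.4 CPM in Ezr-KOm (2.35-fold lower, adjusted p = 0.0622, and 0.0157 with the replicate block). The groups did not overlap for either gene. Hmgn2, a nucleosome-binding protein, was 2.33-fold lower (adjusted p = 0.0365, edgeR), and Prdm16, a transcriptional regulator, was at least 7.71-fold lower against the floor of 3 counts per library (adjusted p = 0.0363, edgeR). The calls on Padi4, Hmgn2 and Prdm16 were lost in 4, 5 and 6 of the 6 fits without 1 moM library, with adjusted p up to 0.245, 0.277 and 0.185 over all alternatives. Pdpn, which encodes podoplanin, an ERM-binding membrane glycoprotein, was at 39.6, 19.6 and 18.9 CPM in WT and 11.0, 9.60 and 4.67 CPM in Ezr-KOm (log2 fold change -1.62, adjusted p = 0.404, and 0.00794 with the block). Fblim1, a filamin-binding protein of cell junctions and focal adhesions, was at 2.79, 1.62 and 1.97 CPM in WT and 0.522, 1.08 and 0.397 CPM in Ezr-KOm and met the study's rule (log2 fold change -1.64, adjusted p = 0.310, edgeR).

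Of the 6 genes that rose outside both windows at the adjusted threshold, 4 are copies of genes that lie inside a window. Atp6v0c-ps2 and Rnps1-ps on chromosome 6 are processed pseudogenes of Atp6v0c and Rnps1, Hmga1b on chromosome 11 is a copy of Hmga1 of the chromosome 17 window, and Eno1b is a copy of Eno1, the glycolytic enzyme enolase 1, of the chromosome 4 window. The following stretches of the reference transcripts (GENCODE M39, GRCm39, 5′ to 3′) show how little separates a window gene from its copy, with bases that differ in capitals. The first pair covers coding bases 51 to 220 of Atp6v0c, counted from its start codon, and holds T111C, the substitution between gene and copy over 465 aligned bases.
Atp6v0c: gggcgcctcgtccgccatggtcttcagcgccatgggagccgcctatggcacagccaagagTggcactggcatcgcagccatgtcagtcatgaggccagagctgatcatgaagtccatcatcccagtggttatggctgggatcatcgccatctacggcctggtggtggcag
Atp6v0c-ps2: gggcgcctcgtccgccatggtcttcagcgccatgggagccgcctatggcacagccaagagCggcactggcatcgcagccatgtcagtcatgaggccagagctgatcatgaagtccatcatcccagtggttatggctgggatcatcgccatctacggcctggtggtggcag
The second pair covers coding bases 183 to 352 of Rnps1 and holds 2 of the 5 substitutions (C243A and C332T) over 843 aligned bases.
Rnps1: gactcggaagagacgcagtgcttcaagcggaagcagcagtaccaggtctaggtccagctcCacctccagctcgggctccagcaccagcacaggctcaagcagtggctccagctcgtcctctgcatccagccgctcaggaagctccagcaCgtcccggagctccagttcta
Rnps1-ps: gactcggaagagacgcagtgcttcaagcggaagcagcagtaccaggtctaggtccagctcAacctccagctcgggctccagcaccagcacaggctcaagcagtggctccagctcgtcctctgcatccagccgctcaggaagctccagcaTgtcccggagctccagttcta

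Reads that fit a gene and its copy equally well have several positions in the genome and are not counted by the authors' counter, so the value of a copy rests on reads that cover a difference such as those in capitals. The window gene is also counted from stretches that the copy lacks, as Rnps1 has 915 coding bases of which 843 align to its copy. Atp6v0c-ps2 was at 2.39, 3.56 and 2.52 CPM in WT and 82.1, 85.8 and 69.8 CPM in Ezr-KOm moMs (27.9-fold higher, adjusted p = 1.59e-11, edgeR), while Atp6v0c itself was lower. The copy made up 0.615% to 0.809% of the summed counts of the pair in WT libraries and 32.6% to 35.3% in Ezr-KOm libraries. The sum of gene and copy was 402 ± 33.2 CPM in WT and 232 ± 28.0 CPM in Ezr-KOm (SD, n = 3 each), a ratio of 0.576, against 0.382 for Atp6v0c alone. Rnps1-ps was at 0.512, 0.456 and 0.472 CPM in WT and 16.1, 18.3 and 19.1 CPM in Ezr-KOm (36.9-fold higher, adjusted p = 1.38e-09, edgeR). It took 0.541% to 0.663% of its pair in WT and 35.6% to 40.3% in Ezr-KOm, and the sum of the pair stood at a ratio of 0.599, against 0.374 for Rnps1 alone. Summing the copy thus left the pair lower in Ezr-KOm, by less than the window gene alone.

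For Hmga1b, which was 39.0-fold higher (adjusted p = 2.80e-04, edgeR), the copy took 0.379% to 0.807% of the pair in WT and 12.6% to 33.4% in Ezr-KOm, and the summed level was 56.4 ± 1.73 CPM in WT and 58.0 ± 13.3 CPM in Ezr-KOm (SD, n = 3 each). Hmga1 alone had a log2 fold change of -0.34 (adjusted p = 1.00, edgeR). Eno1b was at 15.2, 10.9 and 9.88 CPM in WT and 142, 243 and 142 CPM in Ezr-KOm (14.7-fold higher, adjusted p = 1.89e-08, edgeR), next to Eno1 at 1810, 2100 and 1780 CPM in WT and 1380, 1610 and 1380 CPM in Ezr-KOm. The ratio of the summed pair was 0.857.

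Copies were then sought by sequence alone. Of the genes tested outside the windows, 102 have a transcript that matches a window gene at an identity of at least 90% over at least 80% of its length. These 102 genes are called copies here whichever gene is the parent, and they include protein-coding genes such as Rpl7a and Kifc1. The study's rule called 12 of the 102 (11.8%), 10 higher and 2 lower. The 12 include the 4 copies that prompted the search. The rule called 2.07% of the 15086 genes with no such match and 2.34% of the 640 pseudogenes with no such match. Among the 12 was Gm14292, a copy of Wtap, at 0.0569, 0.0829 and 0.236 CPM in WT and 1.09, 1.93 and 1.76 CPM in Ezr-KOm (adjusted p = 0.0549, edgeR). Mpc1-ps, a copy of the mitochondrial pyruvate carrier gene Mpc1, was lower by the study's rule, at 8.77, 11.3 and 10.6 CPM in WT and 4.92, 5.90 and 4.10 CPM in Ezr-KOm, and took 34.6% to 42.8% of the pair in WT and 30.7% to 34.8% in Ezr-KOm (adjusted p = 0.104, edgeR). The sequence search followed the sight of the first 4 copies among the calls, and the part of read assignment in these differences was not tested.

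**Figure D3:**
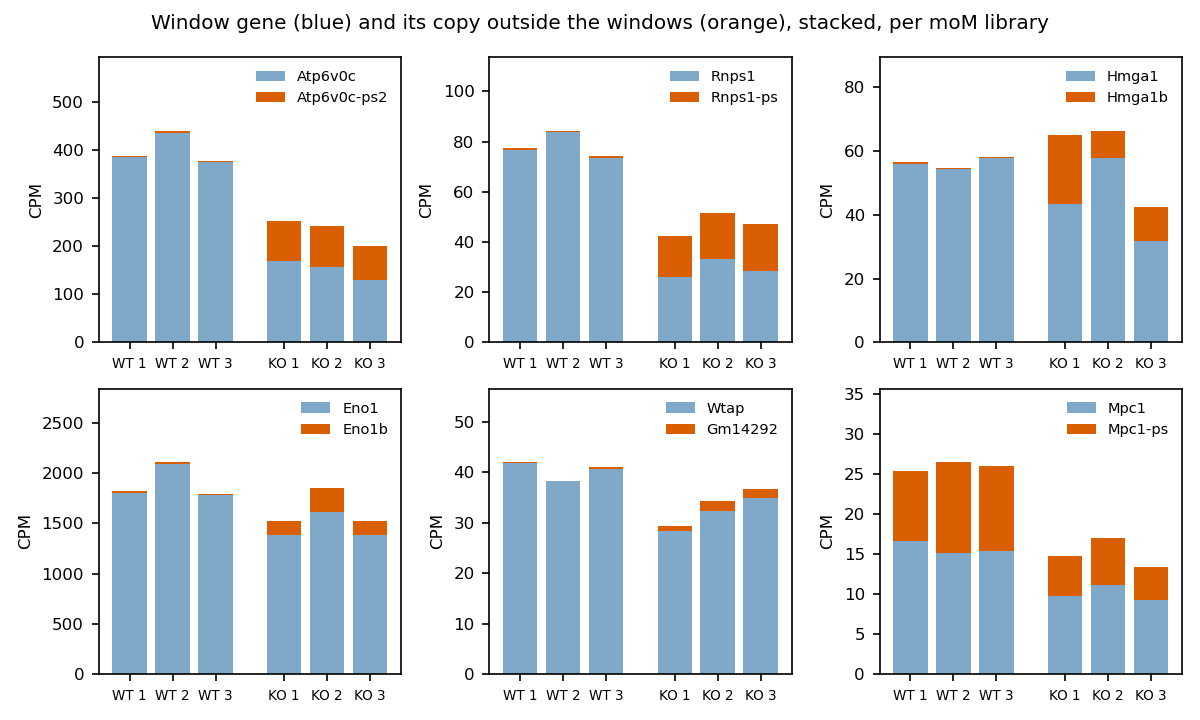
Stacked CPM in each moM library of 6 window genes (blue) and their copies outside the windows (orange), WT libraries on the left and Ezr-KOm libraries on the right of each panel. The copies of Atp6v0c and Rnps1 make up at most 0.809% of their pair in WT and at least 32.6% in Ezr-KOm, and the summed pairs of Atp6v0c, Rnps1, Mpc1 and Wtap are lower in every Ezr-KOm library than in any WT library.

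Outside the windows and apart from those copies, 4 genes passed the adjusted threshold. Kcnn4 (ENSMUSG00000054342, chromosome 7, 24069688 to 24086115), which encodes a calcium-activated potassium channel, was at 88.4, 99.9 and 118 CPM in WT and 35.8, 41.5 and 27.2 CPM in Ezr-KOm moMs. It was 2.93-fold lower (log2 fold change -1.55, standard error 0.21, adjusted p = 7.90e-04, edgeR). Ercc1 (ENSMUSG00000003549, chromosome 7, 19078703 to 19090449), a subunit of a nuclease of DNA excision repair, was at 21.3, 24.7 and 21.2 CPM in WT and 9.31, 8.83 and 8.29 CPM in Ezr-KOm. It was 2.55-fold lower (log2 fold change -1.35, standard error 0.20, adjusted p = 0.00278, edgeR). Ercc1 overlaps Polr1g on the opposite strand, so reads of their shared stretch cannot be told apart. Both calls held in all 15 alternative fits.

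Kcnn4 and Ercc1 lie 5 Mb apart on chromosome 7, and the region around them was looked at because of that. From 15 to 25 Mb of chromosome 7 the study's rule called 7 of 117 tested genes (5.98%, against 2.14% outside the windows), 2 higher and 5 lower. Kcnn4 and Ercc1, around which the interval was drawn, are 2 of the 7. Among them was C5ar2, a receptor for the complement fragment C5a, at 10.8, 12.8 and 10.5 CPM in WT and 5.31, 7.10 and 3.04 CPM in Ezr-KOm, and Gpr4, a proton-sensing receptor, at 1.54, 1.24 and 2.05 CPM in WT and 4.39, 5.59 and 2.95 CPM in Ezr-KOm. Opa3, a mitochondrial protein gene of the same stretch, was at 81.4, 85.3 and 76.2 CPM in WT and 135, 128 and 108 CPM in Ezr-KOm (log2 fold change 0.61, adjusted p = 0.0808, and 0.0172 with the replicate block).

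Ptx3 (ENSMUSG00000027832, chromosome 3, 66127331 to 66133226), a secreted pentraxin that binds microbes and complement and is induced by inflammatory signals, was at 5.86, 4.14 and 6.42 CPM in WT and 10.2, 15.9 and 12.5 CPM in Ezr-KOm moMs. It was 2.35-fold higher (log2 fold change 1.23, standard error 0.21, adjusted p = 0.0121, edgeR). The call was lost without WT replicate 1, WT replicate 2 or Ezr-KOm replicate 2, with adjusted p up to 0.151 over all alternatives. Ptx3 lies within Veph1 on the opposite strand. Tspan33 (ENSMUSG00000001763, chromosome 6, 29694221 to 29718558), a tetraspanin, was at 1.99, 1.95 and 2.64 CPM in WT and 6.39, 3.55 and 6.21 CPM in Ezr-KOm (log2 fold change 1.28, adjusted p = 0.0469, edgeR), a call lost in 5 of the 6 fits without 1 moM library, with adjusted p up to 0.359 over all alternatives.

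Taking the shared replicate numbers as pairs, which the labels do not state, raised the number of calls to 42 (0.266%). These included all 27 genes above and 15 more. The block in a fit to only the 6 moM libraries gave 34 calls, and Ptx3, Tspan33, Hmgn2, Prdm16 and Zfp948 were not among them. Of the 15, 4 lay in the chromosome 17 window, 4 in the chromosome 4 window and 7 elsewhere. In the windows, beside Ezr, Pim1, Gpr31c, Padi2 and Pdpn, these were Vmn2r97, a vomeronasal receptor gene with a blocked log2 fold change of -3.12 (adjusted p = 0.0172), Tnfrsf14, a receptor of the TNF family with 1.08 (adjusted p = 0.0184), and Sytl1, a vesicle trafficking protein with 3.05 (adjusted p = 0.0346), from edgeR. Emb, which encodes embigin, a membrane glycoprotein that accompanies lactate transporters, was one of the 7. It was at 486, 483 and 530 CPM in WT and 198, 248 and 354 CPM in Ezr-KOm moMs (log2 fold change -0.90, adjusted p = 0.0995, and 0.00794 with the block). Spic, a transcription factor of iron-recycling macrophages, was at 7.80, 7.96 and 8.98 CPM in WT and 16.1, 17 and 12.1 CPM in Ezr-KOm (log2 fold change 0.87, adjusted p = 0.0940, and 0.0455 with the block). Clcf1, a cytokine of the interleukin-6 family, and Ccn5, a secreted matrix-associated protein, had adjusted p of 0.0335 and 0.0486 with the block and log2 fold changes of 0.69 and 1.03. The other 3 were Opa3, Gm14292 and 4930481A15Rik, a noncoding gene with a log2 fold change of -2.55.

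Among the gene lists chosen here, that of the extracellular matrix and its proteases, the longest, had the most members higher in Ezr-KOm moMs. Of 90 tested genes 12 were higher by the study's rule and 0 lower (13.3%, against 1.55% higher over all genes), 65 had a positive log2 fold change, and the median was 0.36 against 0.00 over all genes. With a group at the floor of 3 counts taken as a bound, the median of the list was 0.26. None of the 12 passed the adjusted threshold of edgeR, 14 of the 90 had an unadjusted p under 0.05, and 2 passed the adjusted threshold in DESeq2. Mmp13, an interstitial collagenase, was at 10.4, 8.41 and 5.32 CPM in WT and 17.4, 12.0 and 23.4 CPM in Ezr-KOm (log2 fold change 1.13, adjusted p = 0.305, edgeR). Col1a1, a chain of type I collagen, was at 2.90, 4.39 and 3.39 CPM in WT and 7.66, 6.79 and 8.24 CPM in Ezr-KOm (log2 fold change 1.08, adjusted p = 0.407, edgeR). Lamb1, a laminin chain, was at 0.854, 0.539 and 1.02 CPM in WT and 3.09, 2.51 and 1.94 CPM in Ezr-KOm (log2 fold change 1.64, adjusted p = 0.250, edgeR). Adamts15, a proteoglycan-cleaving protease, was at 0.455, 0.207 and 0.669 CPM in WT and 1.74, 2.24 and 2.34 CPM in Ezr-KOm (log2 fold change 2.23, adjusted p = 0.248, edgeR). The other 8 were Lox, which cross-links collagen, Col18a1, Tnc, Adamts2, Dcn, Bgn, Lama4 and Mmp25, the last of which lies in the chromosome 17 window. In 10 of the 12 every Ezr-KOm library lay above every WT library. Groups were separate, in either direction, for 8.52% of all genes tested. The 12 were selected by p and fold change on these libraries, so their separation adds no support. The 12 genes were at means of 1.16 to 17.6 CPM in Ezr-KOm. Mmp14, a membrane-bound collagenase, was at 487, 443 and 452 CPM in WT and 543, 643 and 589 CPM in Ezr-KOm (log2 fold change 0.36, adjusted p = 1.00, edgeR).

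Markers of fibroblasts and smooth muscle moved with this list. Of 14 such markers, all tested, 5 were higher by the study's rule and 0 lower, 13 had a positive log2 fold change and the median was 0.73. Their summed level was 65.1, 58.8 and 45.8 CPM in WT and 97.3, 81.6 and 73.5 CPM in Ezr-KOm libraries, without overlap. The 5 were Col1a1, Dcn, Pdgfra, Inmt and Tcf21, none of the 14 markers was at 0 in every library, and Pdgfra, a receptor of fibroblasts, was at 3.76, 3.77 and 2.24 CPM in WT and 6.92, 10.2 and 5.6 CPM in Ezr-KOm. The lists share 6 tested genes, of which 2 are among the 12 higher matrix genes. Whether the matrix genes come from moMs or from other cells carried through the sort was not tested. Without WT replicate 2 or without Ezr-KOm replicate 1, 3 of the 14 markers were higher. The mean summed level of the markers was 171 CPM in WT and 218 CPM in Ezr-KOm tnsIMs, and 38.6 and 52.1 CPM in matIMs.

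Markers of the sorted cell type were present at high level in every library. The 20 monocyte and macrophage markers summed to 43800 to 51400 CPM in WT and 40000 to 48800 CPM in Ezr-KOm, and 0 met the study's rule. Ly6c2, the antigen of the gate, was at 487, 470 and 488 CPM in WT and 582, 400 and 441 CPM in Ezr-KOm, and Ccr2 at 1440, 1530 and 1750 CPM in WT and 1240, 1550 and 1790 CPM in Ezr-KOm. Groups overlapped for both. Cx3cr1, which carries Cre, was at 132, 105 and 141 CPM in WT and 87.5, 96.7 and 85.9 CPM in Ezr-KOm (log2 fold change -0.49, adjusted p = 1.00, edgeR). The 11 MHC class II genes summed to 5280 to 7080 CPM in WT and 4330 to 7640 CPM in Ezr-KOm, so their transcripts were present although the gate excludes the surface protein.

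Of the other marker lists, 0 members of the alveolar macrophage, neutrophil, dendritic, T and NK, B and plasma, endothelial, erythrocyte and platelet, and eosinophil, basophil and mast cell lists met the study's rule. The summed neutrophil markers were at 847 to 957 CPM in WT and 709 to 962 CPM in Ezr-KOm, and the summed endothelial markers at 236 to 288 and 220 to 314 CPM. Epithelial markers summed to 634 to 674 CPM in WT and 497 to 706 CPM in Ezr-KOm, with 1 of 14 lower by the rule (Scgb3a2, which was at most 0.118 CPM in every library). Xist was detected in each moM library at 45.2 to 110 CPM without a difference between genotypes (log2 fold change 0.01).

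Genes of the machinery usually linked to ERM proteins moved little. Of 46 focal adhesion genes 1 was lower by the rule, Fblim1 of the chromosome 4 window, and 0 were higher (2.17%, against 2.51% over all genes). Vasp, an actin-polymerizing protein, was at 296, 314 and 292 CPM in WT and 394, 354 and 345 CPM in Ezr-KOm (log2 fold change 0.28, adjusted p = 1.00, edgeR). Of 23 integrin genes 0 met the rule. Itga1, a collagen-binding subunit, had the smallest p of the list, at 27.5, 24.5 and 22.8 CPM in WT and 16.6, 17 and 17.3 CPM in Ezr-KOm (log2 fold change -0.56, unadjusted p = 0.0289 and adjusted p = 1.00, edgeR). Of 40 genes of PI3K, Akt and mTOR signalling 0 met the rule, with a median log2 fold change of 0.00 and 1 at an unadjusted p under 0.05 (Deptor, -0.31). DESeq2 called 0 genes of the integrin and PI3K lists at its adjusted threshold and 1 focal adhesion gene, Fblim1 (adjusted p = 0.0360).

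In the cytokine and chemokine list 1 gene met the study's rule (2.04%, against 2.51% over all genes). Of 49 genes, 38 had a positive log2 fold change and the median was 0.25, while 0 were higher by the rule and 1 was lower. That gene, Tnfsf13b, encodes BAFF, a survival factor of B cells, and was at 10.1, 9.86 and 10.3 CPM in WT and 5.87, 4.86 and 6.65 CPM in Ezr-KOm (log2 fold change -0.80, adjusted p = 0.159, edgeR, and 0.00877 in DESeq2). Il1rn, the antagonist of interleukin-1, was at 2530, 2330 and 1780 CPM in WT and 3230, 2760 and 2740 CPM in Ezr-KOm (log2 fold change 0.39, unadjusted p = 0.0306, adjusted p = 1.00, edgeR). Tnf was at 654, 356 and 442 CPM in WT and 947, 593 and 443 CPM in Ezr-KOm, Il6 at 361, 509 and 537 CPM in WT and 409, 558 and 676 CPM in Ezr-KOm, and Cxcl2 at 5000, 3390 and 2950 CPM in WT and 5620, 3630 and 3580 CPM in Ezr-KOm. The groups overlapped for these 3 genes. Of 35 genes of TLR4 and NF-kappaB signalling 0 met the rule (median log2 fold change 0.04).

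Interferon-stimulated genes varied widely among the Ezr-KOm libraries. Of 49 genes 41 had a positive log2 fold change (median 0.16), 0 met the rule and 1 had an unadjusted p under 0.05. The list summed to 7450 to 8580 CPM in WT and 5720 to 11700 CPM in Ezr-KOm. Ifit2 was at 190, 129 and 141 CPM in WT and 358, 103 and 294 CPM in Ezr-KOm, and Rsad2 at 250, 214 and 191 CPM in WT and 491, 173 and 378 CPM in Ezr-KOm, with Ezr-KOm replicate 2 the lowest of all 6 libraries for both genes.

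Few genes of the cell cycle met the study's rule. Of 64 genes of mitosis 0 were higher and 3 lower (Cdca2, Ttk and Kif18b), with a median of -0.08, or -0.04 with a group at the floor taken as a bound. These 3 genes were at most 1.08 CPM in every library, and none passed the adjusted threshold in edgeR or DESeq2. Top2a was at 4.04, 4.81 and 3.39 CPM in WT and 3.57, 2.58 and 2.56 CPM in Ezr-KOm (log2 fold change -0.49, adjusted p = 1.00, edgeR). Of 19 D-type cyclins and CDK inhibitors 1 was lower, Cdkn2b, at 1.08, 0.663 and 0.984 CPM in WT and 0.391, 0.193 and 0.441 CPM in Ezr-KOm (log2 fold change -1.41, adjusted p = 0.642, edgeR). Of 47 cell death and survival genes 0 met the rule. Fpr2, a formyl peptide receptor of the chromosome 17 window, was at 67.9, 52.3 and 75.9 CPM in WT and 86.0, 109 and 104 CPM in Ezr-KOm (log2 fold change 0.61, adjusted p = 0.796, edgeR), and Tnfrsf8, which encodes CD30 and lies in the chromosome 4 window, was at 9.45, 6.46 and 8.19 CPM in WT and 18.4, 12.4 and 9.34 CPM in Ezr-KOm (log2 fold change 0.74, adjusted p = 1.00, edgeR).

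In the metabolic lists the called members were window genes or their copies. Of 50 V-ATPase and lysosome genes 1 was lower, Atp6v0c, and 0 higher (2%, against 2.51% over all genes). Of 29 glycolysis genes 1 was higher, Eno1b, and 0 lower (3.45%). Of 81 subunits of the mitochondrial complexes I to V 0 met the rule, with a median log2 fold change of -0.04. Of 19 genes that the study names for moMs, 4 were higher (Mmp13, Col1a1, Col18a1 and Adamts2) and 1 lower (Fblim1) by the study's rule. That is 26.3% of the list, against 2.51% over all genes. The study named these called genes from the same counts and by the same rule, so the share adds no support. Itga1, Rhof, Tgfb3, Il6, Il1a and Cxcl2, which the paper reports as changed in Ezr-KOm moMs, did not meet the rule here. Their log2 fold changes were -0.56, -0.53, 1.00, 0.22, 0.36 and 0.18. The list also holds Ly6c2, Ccr2, Cx3cr1 and Itgam, which the paper names as markers without a genotype difference in moMs. Tnf and Cxcl1 were named from qPCR, as raised in interstitial macrophages and not in moMs. That qPCR gave the same for Cxcl2, which the paper elsewhere reports as enhanced in Ezr-KOm moMs and tnsIMs. It also covered Il6. Apart from this qPCR, Cxcl2, Il6 and the other genes were named from the same sequencing, so their direction is not independent evidence.

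**Figure D4:**
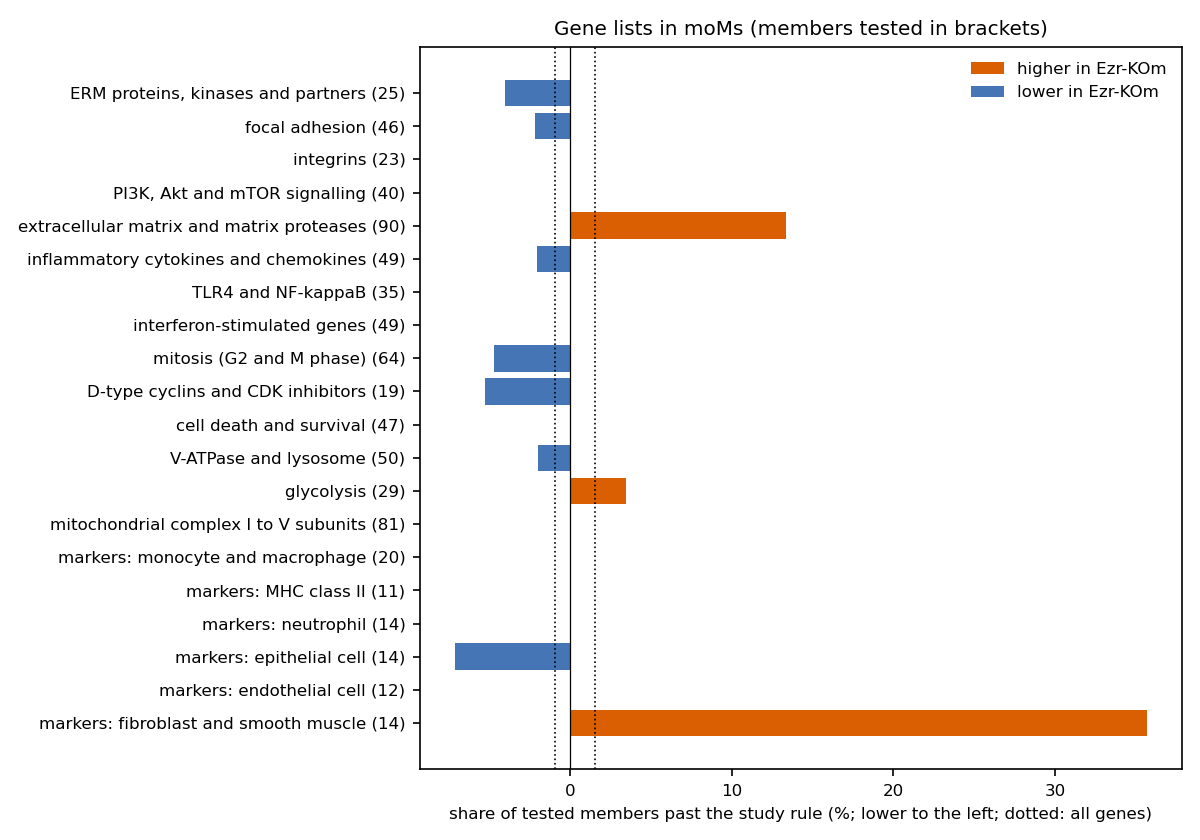
Share of the tested members of the gene lists past the study's rule in moMs, higher in Ezr-KOm to the right and lower to the left, with the shares over all genes dotted (1.55% and 0.961%). The matrix list reaches 13.3% higher and the fibroblast and smooth muscle markers 35.7% higher, and the single lower epithelial member makes up 7.14% of its 14 genes.

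The tnsIM and matIM libraries of the same genotypes, with the same replicate numbers, were set beside the moM calls. The paper states 3 mice per genotype, so libraries of different populations may come from the same mice. Directions shared between populations are therefore not independent evidence. At the adjusted threshold 0.164% of all genes were called in tnsIMs and 0.152% in matIMs, and by the study's rule 1.83% and 2.40%. All 14 moM calls of the chromosome 17 window had the same direction in both other populations, and 10 of them passed the adjusted threshold in both. All 5 calls of the chromosome 4 window and all 8 calls elsewhere also kept their direction in both, and 1 and 6 of them passed in both. Of all genes tested, 39.9% had the moM direction in both. Of the 8 the exceptions were Ptx3, called in tnsIMs but not in matIMs (log2 fold changes 1.09 and 0.68), and Tspan33, called in neither (0.87 and 0.43).

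By the study's rule, 24 of the 39 genes called in moMs in the chromosome 17 window were also called in the same direction in both tnsIMs and matIMs (61.5%), as were 14 of the 33 in the chromosome 4 window (42.4%). Outside the windows this held for 7 of the 12 copies of window genes (58.3%) and for 16 of the other 313 genes (5.11%), and 259 of those 313 were called in neither. Of all genes tested, whether called in moMs or not, 0.512% were called in tnsIMs and matIMs in the direction they had in moMs. Of the 12 matrix genes higher in moMs, 10 had a positive log2 fold change in both other populations and 2 were called in both, where 44.4% of the 313 genes called outside the windows and not copies had the moM direction in both. Emb followed the moM direction, with log2 fold changes of -0.71 in tnsIMs and -0.96 in matIMs, whereas Tnfsf13b had -0.32 and 0.13.

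A call in one population and not in another does not show a difference between them, and that difference was tested by interaction terms. At the adjusted threshold 0 genes differed in their genotype effect between moMs and tnsIMs (0% of those tested) and 0 between moMs and matIMs, in edgeR and in DESeq2. At an unadjusted p under 0.05 edgeR gave 233 and 268 genes of 15811. The fit had 3 libraries per group and took those of different populations as independent. The counts of 0 therefore do not show that the genotype effects are equal.

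**Figure D5:**
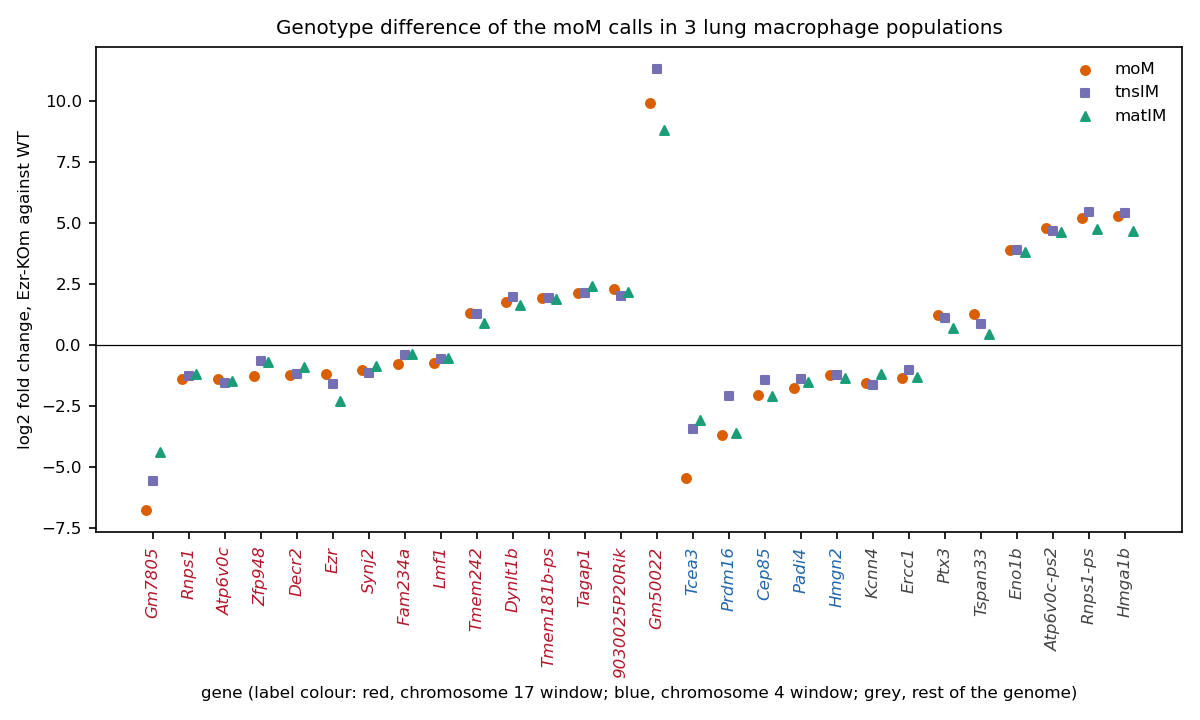
Log2 fold change of Ezr-KOm against WT in moMs (circles), tnsIMs (squares) and matIMs (triangles) for Ezr and the 27 genes called in moMs, with names coloured by genome region. Each gene has the same sign in the 3 populations, and Ezr itself runs from -1.20 in moMs to -2.29 in matIMs.

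The 6 moM libraries held 18443205 to 26343667 counts on 18706 to 19193 detected genes, and mitochondrial genes took 0.171% to 0.321% of the counts. The replicates of each genotype differed by more than counting noise. The labels do not say which libraries came from the same animal, and p-values measure the spread between these libraries.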

How the data were processed

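Per the labels and the study's methods, RNA of sorted moMs, tnsIMs and matIMs was amplified with SMART-Seq v4 and made into Nextera XT libraries, 3 per genotype and population, a method that does not mark strand. The authors aligned reads with STAR 2.7.9a to GRCm39, counted those on each gene of a Gencode M29 annotation, leaving out reads with several positions, and deposited the raw counts of 18 libraries. Counts were analysed here with edgeR 4.0.16 in R 4.3.3 (filterByExpr, TMM, glmQLFit, glmQLFTest): a single model with 6 group means covered the 18 libraries, and Ezr-KOm was set against WT in moMs. Standard errors are the log2 fold change divided by the root of the F statistic. A group with at most 3 counts in each library counts as being at the floor. No column of the table fell outside the labels (0 columns). The scripts were tested on simulated data of 15811 genes, of which 200 were given a change. There the study's rule, which does not correct for the number of genes tested, also called 286 unchanged genes.

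The deviations of same-numbered WT and Ezr-KOm moM libraries from their group means correlated at 0.316, 0.149 and 0.180, each over 0.1. Those of libraries with different numbers correlated at -0.197 to 0.0508. The replicate numbers were therefore taken to pair libraries, and the replicate block is given beside the results it changes. The labels do not state this pairing, which was inferred from the same libraries, so values with the block depend on it. Copies were matched with blastn 2.17.0 between GENCODE M39 transcripts, found for 15755 of the 15811 genes by identifier. DESeq2 1.42.0, other scalings and filters, a robust fit, fits to the 6 moM libraries and fits without each moM library served as alternatives. The genome windows, gene lists, marker lists and named genes were chosen with earlier results of these data known. Genes were named if they were Ezr, passed the adjusted threshold, were among the 10 smallest p per direction by the study's rule outside the windows, were among the 4 smallest p of a list, or were named by the study. Of these 10 and 10, Rasd2, 2610035D17Rik, Fah, Capn11 and Fam83g were under 4 CPM in every moM library and are not described further. Genes named outside this rule, with their values in view, were Pim1, Padi2, Pdpn, Gpr31c, C5ar2, Opa3, Clcf1, Ccn5, Vmn2r97, Tnfrsf14, Sytl1, Mmp14, the window genes of copies and the relatives of Dynlt1b, Tmem181b-ps and 9030025P20Rik. Some items are not reported here.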

Additional observations from a re-analysis of the deposited data

How the results depend on the processing

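Under DESeq2, 55 genes passed the adjusted threshold, 12 of them in the chromosome 4 window and 22 outside both windows, and with the replicate block 42 passed, with 9 and 15 there. With only the moM libraries, 9 passed in the chromosome 17 window, 234 genes met the study's rule and 171 of these lay outside the windows. With the replicate block in only the moM libraries, 9 passed in the chromosome 4 window and 208 met the rule outside the windows. Without a filter on low counts 705 genes met the rule, 611 of them outside the windows. With at least 10 counts in every library 126 met it, 25 in the chromosome 17 window, 16 in the chromosome 4 window and 85 elsewhere, 5 of them copies of window genes. Ezr passed the adjusted threshold at log2 fold changes of -1.21 (DESeq2), -1.21 (library totals only), -1.20 (no filter), -1.20 (robust fit), -1.26 (replicate block) and -1.23 (replicate block, only moM libraries). It did not pass in the other 9 settings, which include only the moM libraries (adjusted p = 0.0692, edgeR) and every fit without 1 moM library (-1.38 to -0.99, adjusted p from 0.0884 to 0.382). The cause of these shifts was not tested. The replicate block over all libraries changed no other adjusted call than those given for it above, and in only the moM libraries it lost Ptx3, Tspan33, Hmgn2, Prdm16 and Zfp948 among the 27.

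The counts for the matrix list, the fibroblast markers, the copies and the interactions were added as checks after seeing the data. Leaving out 1 moM library at a time gave 9 to 10 adjusted calls in the chromosome 17 window, 2 to 5 in the chromosome 4 window and 3 to 6 fibroblast and smooth muscle markers higher by the rule. Ccr2 ranged from -0.18 to 0.0666 and was above 0 without WT replicate 3 (0.03) and Ezr-KOm replicate 1 (0.0666). Cxcl2 ranged from -0.0876 (without Ezr-KOm replicate 1) to 0.43, and Ly6c2 from -0.21 to 0.0930, above 0 without Ezr-KOm replicate 2 (0.0930) and replicate 3 (0.03). Of the 27 adjusted calls, 15 were kept in every setting that tested the gene. With at least 10 counts in every library, 8 matrix genes met the rule.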
